A study of Mus musculus with 4 samples.

Results

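The GDNF receptors and their target regulators are 5 genes of the 32285 in the count matrices, taken by symbol: Gfra1, Ret, Etv5, Bcl6b and Lhx1. Glial cell line-derived neurotrophic factor (GDNF) is secreted by somatic cells of the testis and is needed for the self-renewal of spermatogonial stem cells. It binds the co-receptor GFRA1, which is anchored to the cell surface and has no enzymatic part of its own, and the complex activates the receptor tyrosine kinase RET. Signals from RET pass through adaptor proteins to the PI3K/AKT, SRC family and RAS/ERK routes. In cultured spermatogonia GDNF raises the transcripts of the ETS factor Etv5, the zinc finger repressor Bcl6b and the LIM homeobox factor Lhx1, which are therefore read as targets of the pathway.

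The genes were measured by droplet-based single-cell RNA sequencing of primary mouse spermatogonial cultures. Testes of 3 male pups at postnatal day 6 gave Thy1-positive cells by magnetic sorting, and these were grown over feeder cells of the mouse embryonic fibroblast line STO, in medium that contained GDNF and FGF. The cultures received PBS (vehicle) or extracellular vesicles (EVs) isolated from postnatal day 7 testes at 1 μg/mL for 3 days. Expression was measured in the libraries vehicle 1, vehicle 2 and EV 1, while of EV 2 only the 6794 cell barcodes were read and its expression was not analysed here. A difference between the arms therefore carries no replicate check, and no p-value is given for it. The vesicle donors were C57BL/6 males, several of them pooled, and C57BL/6 is the strain the study names for its purchased mice, without naming the day 6 pups. No genetic change is given for either. The labels call the libraries of an arm biological replicates and the study describes them as independent experiments. Whether each had its own set of pups is not given in the sources used here.

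Cells were classed by their own UMIs (unique molecular identifiers, each marking 1 captured RNA molecule). A germ cell had at least 2 UMIs of Dazl, Tex15, Stk31 and Epcam together and more of these than of Col1a1, Col1a2, Sparc and Dcn, and a feeder cell the reverse. No member was used for the classes. Germ cells numbered 4413 of 8263 cells in vehicle 1 (53.4%), 4783 of 8637 in vehicle 2 (55.4%) and 227 of 4779 in EV 1 (4.75%). Feeder cells numbered 2348, 2479 and 2508, and 18.2%, 15.9% and 42.8% of the cells met neither rule. The summed UMIs of germ cells were 9443680, 11023761 and 325012, and 3 UMIs in the germ cells of EV 1 already equalled 9.23 CPM (UMIs per 1000000 UMIs of the class). Median depth of a germ cell was 1937, 2095 and 1322 UMIs.

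The labelled cell types were checked with markers that the rule had not used. Across 10 germ cell markers the summed level in germ cells was 603, 610 and 603 CPM in vehicle 1, vehicle 2 and EV 1, against 20.0, 16.9 and 4.86 CPM in feeder cells, and Tdrd9 and Mov10l1 were at 0 in the germ cells of EV 1. Across 11 fibroblast markers the summed level was 3672, 3792 and 4074 CPM in feeder cells and 381, 325 and 625 CPM in germ cells. In feeder cells 7 Sertoli cell markers summed to 288, 304 and 284 CPM, with Amh and Rhox8 at 0 in vehicle 1 and Amh, Cldn11 and Rhox8 at 0 in EV 1, and their part in the feeder values was not tested. Germ cells of EV 1 carried fibroblast markers at 15.3% of the feeder level, against 10.4% and 8.56% in the vehicle libraries. These values stand beside every comparison of EV 1 with vehicle below, and their part in it was not tested. All intervals are 95% intervals and cover counting error only.

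All 5 members lie on the minus strand of GRCm38 as protein-coding genes. Gfra1 (ENSMUSG00000025089) spans chr19:58235604-58455909 and shares bases with Gm16277 on the other strand. Ret (ENSMUSG00000030110) spans chr6:118151745-118197718, and Etv5 (ENSMUSG00000013089) spans chr16:22381309-22439719. Both Bcl6b (ENSMUSG00000000317; chr11:70224128-70229798) and Lhx1 (ENSMUSG00000018698; chr11:84518284-84525535) lie on chromosome 11. RefSeq promoters (GRCm38.p6, 250 bases before the start) were found for 3 of the 5 members, Gfra1, Etv5 and Lhx1. The windows were searched on both strands for 4 motifs, namely CCGGAA (an ETS core), the CCAAT box, the TATA box form TATAAA and TGACG (the first part of the cyclic AMP response element). CCGGAA was present in 12.0% of the 32851 mouse promoters of this length, CCAAT in 33.8%, TATAAA in 12.4% and TGACG in 17.8%.

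The Lhx1 promoter is shown because Lhx1 had the largest cycle difference among the members, and the Etv5 promoters because Etv5 was the member called higher with a Gfra1 UMI, a call that was lost in 6 of 7 alternatives. Bases inside annotated exons of the gene were left out, and capitals mark motif matches on either strand. The Lhx1 window (chr11:84525536-84525784, minus strand, 249 bases) held CCAAT once and TGACG once, and it overlaps an exon of the antisense RNA gene Lhx1os. The upstream Etv5 stretch (chr16:22439720-22439820, minus strand, 101 bases) held CCAAT once, and the second Etv5 promoter (chr16:22438369-22438618, minus strand, 250 bases) held it once as well.
Lhx1 promoter: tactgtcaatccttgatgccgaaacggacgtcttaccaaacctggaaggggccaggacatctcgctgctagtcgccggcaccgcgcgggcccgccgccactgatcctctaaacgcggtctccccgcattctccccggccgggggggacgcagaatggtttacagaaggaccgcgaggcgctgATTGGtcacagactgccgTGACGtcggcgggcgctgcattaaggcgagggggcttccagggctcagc
Etv5 promoter 1: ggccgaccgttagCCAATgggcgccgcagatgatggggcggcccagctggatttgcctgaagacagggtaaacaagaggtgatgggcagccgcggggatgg
Etv5 promoter 2: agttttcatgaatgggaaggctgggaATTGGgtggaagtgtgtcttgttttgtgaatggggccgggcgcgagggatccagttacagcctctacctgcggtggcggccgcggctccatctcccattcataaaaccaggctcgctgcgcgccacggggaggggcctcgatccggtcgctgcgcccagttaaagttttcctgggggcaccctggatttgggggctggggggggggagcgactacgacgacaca
Neither CCGGAA nor TATAAA was found in the Lhx1 window or in either full Etv5 window. The Gfra1 window, which lies mostly inside an exon of a longer Gfra1 transcript and is not printed, held CCGGAA once and CCAAT once.

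The co-receptor Gfra1 was a germ cell transcript in all 3 libraries. It had 1920 UMIs in germ cells of vehicle 1 (203 CPM), 2391 in vehicle 2 (217 CPM) and 32 in EV 1 (98.5 CPM, Poisson interval 67.3 to 139). Feeder cells held 71, 69 and 21 UMIs, which is 7.46, 6.39 and 3.10 CPM. In every library the germ cell level lay above the feeder level, with intervals that did not overlap. Feeder Gfra1 was at 3.67%, 2.95% and 3.14% of its germ cell level, above the 3.31%, 2.76% and 0.807% of the 10 germ cell markers, by the widest margin in EV 1.

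Its partner Ret, the kinase of the complex, had 910 UMIs in germ cells of vehicle 1 (96.4 CPM), 1174 in vehicle 2 (106 CPM) and 23 in EV 1 (70.8 CPM, 44.9 to 106). In feeder cells the counts were 18, 25 and 1. Feeder Ret was thus at 1.96%, 2.17% and 0.208% of its germ cell level, below the percentages of the germ cell markers. Counts at or under the level of germ cell markers in feeder cells are read as background and not as expression, and their source was not tested.

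Etv5, an ETS transcription factor, was the member whose feeder cell level was highest relative to its germ cell level. Germ cells had 1049 UMIs in vehicle 1 (111 CPM), 1246 in vehicle 2 (113 CPM) and 28 in EV 1 (86.2 CPM, 57.2 to 125). Feeder cells had 150, 158 and 110 UMIs, which is 15.8, 14.6 and 16.2 CPM. Feeder Etv5 was 14.2%, 12.9% and 18.8% of the germ cell level, several times the percentage of the germ cell markers. It also stayed level across the libraries while the summed germ cell markers in feeder cells were at 20.0, 16.9 and 4.86 CPM.

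Bcl6b, a repressor that is related to BCL6, was the most thinly counted member. Its 162, 202 and 10 UMIs in germ cells were 17.2, 18.3 and 30.8 CPM (14.8 to 56.6 in EV 1). Feeder cells held 7, 3 and 0 UMIs, so that vehicle 1 stood at 4.29% of the germ cell level and vehicle 2 at 1.52%. For the count of 0 in EV 1, 3 counts would equal 0.442 CPM, and the Poisson interval ends at 0.544 CPM.

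Lhx1, a homeobox factor, had 412 UMIs in germ cells of vehicle 1 (43.6 CPM), 551 in vehicle 2 (50.0 CPM) and 9 in EV 1 (27.7 CPM, 12.7 to 52.6). In feeder cells 7, 9 and 0 UMIs were found. The vehicle libraries stood 0.20 apart on the log2 scale for Lhx1, the widest distance of any member, against 0.02 for Etv5.

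**Figure D1:**
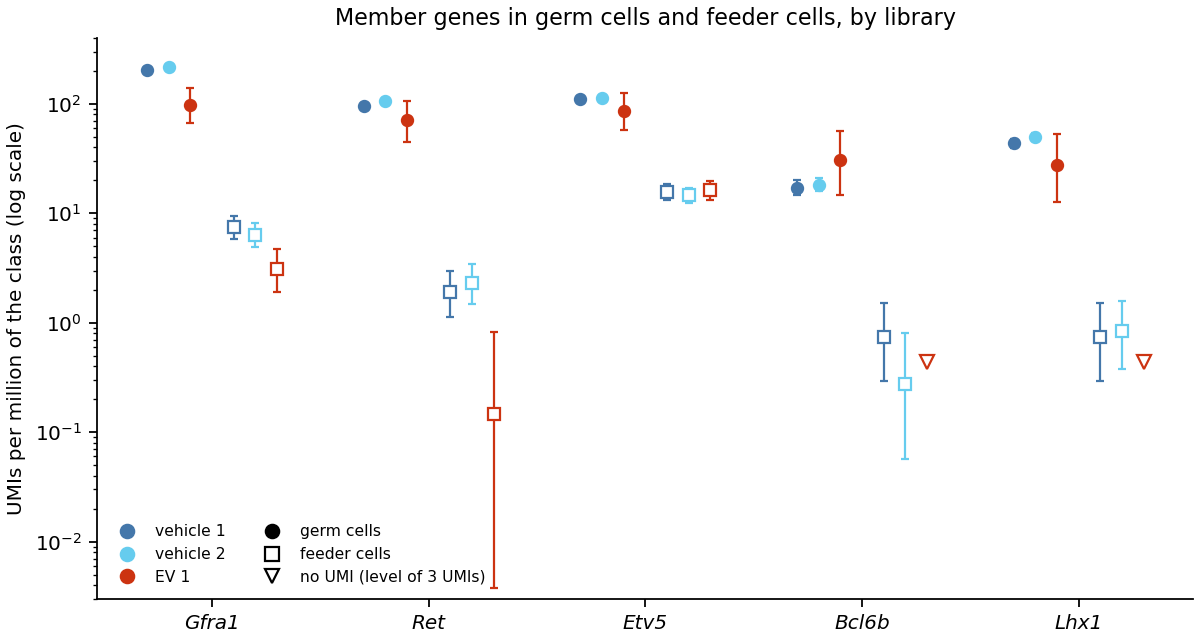
Level of each member in CPM of the class (log axis) in germ and feeder cells of vehicle 1, vehicle 2 and EV 1, where points are libraries, bars are 95% Poisson intervals and triangles mark the level of 3 UMIs where none was found. Every germ cell point lies above the feeder points of the same gene, and Etv5 has the smallest distance, with feeder cells at 15.8, 14.6 and 16.2 CPM.

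Summed per library and class, germ cells were compared with feeder cells in a fit over 15640 genes with library as a block (edgeR quasi-likelihood test, Benjamini-Hochberg adjusted over all genes). In this comparison 40.1% of the genes were higher in germ cells and 41.7% lower, so being called is common. All 5 members were higher in germ cells. The log2 fold change was 4.54 (SE 0.14, adjusted p = 1.35e-16) for Gfra1 and 5.39 (SE 0.17, adjusted p = 1.82e-16) for Ret. For the targets it was 2.44 (SE 0.11, adjusted p = 4.01e-14) for Etv5, 5.19 (SE 0.34, adjusted p = 1.17e-11) for Bcl6b and 5.68 (SE 0.22, adjusted p = 3.42e-15) for Lhx1. The median over all genes tested was −0.03. The 5 calls held in all 40 values from alternative fits, which included leaving out each library.

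Among the ligands and other co-receptors both directions were found. Of 11 such genes 7 were tested, 2 were higher in germ cells and 5 lower. Gdnf itself, the ligand, was lower in germ cells, with a log2 fold change of −4.75 (SE 0.26, adjusted p = 5.19e-13), and had 167, 188 and 178 UMIs in feeder cells (17.5, 17.4 and 26.2 CPM) against 10, 5 and 2 in germ cells. Also lower in germ cells were Gfra2, the co-receptor for neurturin (−3.79), Ncam1, an adhesion molecule that can bind GDNF without RET (−3.28), Gas1 (−4.57) and the syndecan Sdc3 (−2.72). The genes that were higher in germ cells were Nrtn, which encodes neurturin (2.28, adjusted p = 2.79e-11), and Gfra4, the co-receptor for persephin (4.48, adjusted p = 1.36e-09).

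Among 12 further genes raised by GDNF or ETV5, 9 were higher in germ cells and 2, Egr3 and Id4, were lower. The largest value was that of the homeobox gene Hhex at 5.71 (SE 0.17, adjusted p = 1.20e-16), with 152.7, 154 and 111 CPM in germ cells of vehicle 1, vehicle 2 and EV 1. Pou3f1, a POU domain factor, followed at 5.26 (SE 0.15, adjusted p = 1.01e-16). The lowest was Egr3 at −1.45. Of 27 RET adaptors and kinases 6 were higher and 17 lower, from Grb7 at 5.19 to Grb10 at −2.95, with a list median of −0.41. ERK output and feedback genes were 4 higher and 7 lower of 13. The relatives of Etv5 in that list went apart, since Etv4 was higher in germ cells (0.74, adjusted p = 5.24e-07) and Etv1 lower (−5.37, adjusted p = 2.70e-16). For the FGF receptors, Fgfr4 was higher in germ cells (2.80), Fgfr1 lower (−1.21), and 3 of 4 were tested. Of the 14 comparator genes of spermatogonial state 11 were tested, 10 were higher in germ cells, from Nanos3, Foxo1 and Zbtb16 to Dmrt1 at 5.81, and the receptor gene Rarg was lower (−2.70).

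To compare how many cells held a UMI at equal depth, 1000 UMIs were drawn from each cell, which left out 146, 112 and 49 germ cells with fewer UMIs in vehicle 1, vehicle 2 and EV 1. In vehicle 1, 16.9% of germ cells held Gfra1 (exact binomial interval 15.8 to 18.0). The value for vehicle 2 was 17.3% (16.2 to 18.4), and that for EV 1 was 10.1% (6.10 to 15.5). Feeder cells at the same depth gave 0.530%, 0.702% and 0.258%. Ret was seen in 8.27%, 9.72% and 6.74% of germ cells, with an EV 1 interval of 3.53 to 11.5 that covers both vehicle values, and in 0.265%, 0.165% and 0% of feeder cells, where 0 of 2324 allows up to 0.129% at 3 counts and the exact interval ends at 0.159%. The interval of Gfra1 in EV 1, by contrast, ended below both vehicle values.

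Etv5 was found in 10.3%, 9.72% and 8.43% of germ cells and in 1.59%, 1.65% and 1.64% of feeder cells. Bcl6b was found in 1.66%, 1.99% and 3.37%, and Lhx1 in 4.17%, 4.54% and 3.93% of germ cells. For these 3 targets the EV 1 intervals covered the vehicle values. Without thinning, the Gfra1 shares were 30.0%, 32.2% and 11.9%, values that follow the depth of the libraries as well. Counted over all members, 65.9%, 64.5% and 71.3% of thinned germ cells held none of the 5, 27.6%, 28.5% and 24.7% held 1, and 0.680%, 0.642% and 0% held 3 or more.

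In germ cells EV 1 stood below both vehicle libraries for Gfra1, Ret, Etv5 and Lhx1 and above both for Bcl6b. Relative to the vehicle mean, with 0.5 UMI added, the log2 ratio was −1.07 for Gfra1, −0.49 for Ret, −0.35 for Etv5, −0.68 for Lhx1 and 0.86 for Bcl6b. A gene was counted as past the fold when the log2 ratio was at least 1 in size and the gap from EV 1 to the nearer vehicle library exceeded the gap between both vehicle libraries. This held for 4.5% (lower) and 4.09% (higher) of the 9663 genes with at least 200 UMIs, and the median log2 ratio over these was 0.01. Gfra1 was past the fold and the other 4 members were not. The log2 ratio of Gfra1 was at least 1 in size in 8 of 12 alternatives and fell short with each cell thinned to 1000 UMIs (−0.87), with 5 UMIs added (−0.89), with a marker threshold of 3 UMIs (−0.99) and with classes called on thinned cells (−0.99). Those of Bcl6b and Lhx1 were at least 1 in size in 2 of 12 each.

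The exact conditional intervals of the ratio of EV 1 to the pooled vehicle libraries show how far the counts reach. For Gfra1 the ratio was 0.467 (0.319 to 0.661). It was 0.695 (0.440 to 1.05) for Ret, 0.768 (0.509 to 1.11) for Etv5, 0.589 (0.268 to 1.12) for Lhx1 and 1.73 (0.823 to 3.22) for Bcl6b. Among the members only the Gfra1 interval stayed clear of 1. When a germ cell needed just 1 marker UMI, an alternative added after the data were seen, EV 1 had 313 germ cells and the ratios were 0.391 (0.272 to 0.545) for Gfra1, 0.599 (0.391 to 0.881) for Ret and 0.488 (0.233 to 0.901) for Lhx1, so that the Ret and Lhx1 intervals then lay below 1 as well.

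**Figure D2:**
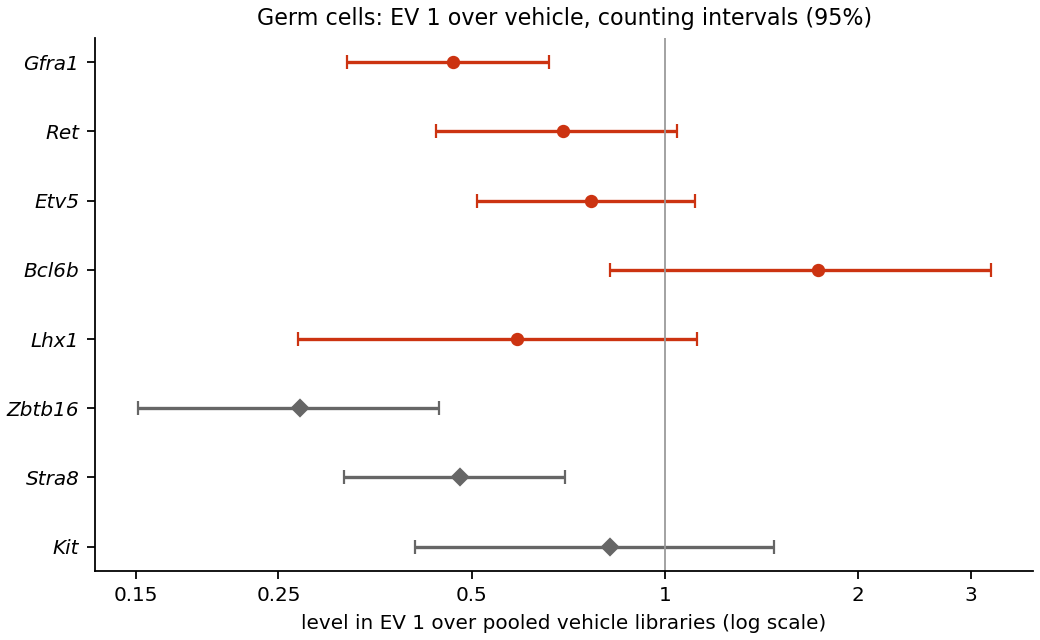
Ratio of EV 1 to the pooled vehicle libraries in germ cells (log axis) for the 5 members (circles) and 3 comparator genes (diamonds), where points are ratios, bars are 95% exact conditional intervals for counting error, and the line marks a ratio of 1. Gfra1 lies at 0.467 and Zbtb16 at 0.270, and their intervals and that of Stra8 lie below 1. The intervals of Ret, Etv5, Bcl6b, Lhx1 and Kit cross 1.

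Among the comparators, the ratio of Zbtb16, a repressor of undifferentiated spermatogonia, was 0.270 (0.151 to 0.446) on 15 UMIs in EV 1. That of Stra8, a gene induced by retinoic acid, was 0.480 (0.316 to 0.700) on 27 UMIs. The value of Kit, the receptor of differentiating spermatogonia, was 0.822 (0.409 to 1.48). Zbtb16, Stra8 and Eomes were the 3 of 12 comparators past the fold, all lower, and Eomes had 0 UMIs in EV 1, where a level like that of vehicle was not detectable at this depth. Scaling the classes by TMM or by DESeq2 size factors shifted all log2 ratios by −0.15 and −0.13, which kept the direction of each member. Etv5 alone changed direction in any alternative, to 0.09 when the classes were called on cells thinned to 1000 UMIs.

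The pathway lists, like the comparators above, were counted over genes with at least 50 UMIs in germ cells. At that minimum the share of all genes past the fold was 6.97% lower and 11.4% higher. Of 6 ligands and co-receptors 1 was lower (Gas1, 1 UMI, ratio 0.256, 0.00646 to 1.44) and 1 higher (Gfra2, 2 UMIs, ratio 1.85, 0.220 to 6.95). Of 25 RET adaptors and kinases Grb7 was lower (1 UMI, 0.328, 0.00826 to 1.85), and Grb10 (7 UMIs, 4.20, 1.65 to 8.96) and Dok1 (3 UMIs, 1.99, 0.403 to 5.99) were higher. The median of this list was −0.05. Most of the named genes rested on 1 to 3 UMIs, and of those just named the interval of Grb10 alone excluded 1.

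Of 10 other GDNF or ETV5 genes Id4 (0.206, 0.00521 to 1.16) and Mycn (0.185, 0.00466 to 1.04) were lower, with 1 UMI each. By the log2 ratio with 0.5 UMI added the highest of that list was Cxcr4, on 1 UMI in EV 1 (ratio without it 1.07, 0.0266 to 6.18). Of 13 ERK output and feedback genes the phosphatase gene Dusp6 (2 UMIs, 0.239, 0.0288 to 0.866) and Spry4 (1 UMI, 0.179, 0.00453 to 1.01) were lower and the AP-1 gene Fosl1 (10 UMIs, 2.04, 0.968 to 3.80) was higher. Hhex and Pou3f1, which like the members were germ cell transcripts, had ratios of 0.722 (0.505 to 1.00) and 1.08 (0.778 to 1.46). Among 4 FGF receptors Fgfr3 was at 0 UMIs in EV 1, again not detectable at this depth, and Fgfr4 (2 UMIs) had a ratio of 1.80 (0.214 to 6.75).

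Over all kept cells of a library, as a measurement of the whole culture would read them, the differences were larger. All-cell Gfra1 was 104, 112 and 6.69 CPM in vehicle 1, vehicle 2 and EV 1, a log2 ratio of −4.00 against −1.07 within germ cells. The all-cell log2 ratio was −4.09 for Ret, −1.61 for Etv5, −2.80 for Bcl6b and −4.29 for Lhx1. Bcl6b thus had opposite signs over all cells and within germ cells. The vehicle level of each class was also combined with the class UMIs of EV 1. The log2 ratio was then −1.43, −1.40, −0.98, −1.18 and −1.20 for Gfra1, Ret, Etv5, Bcl6b and Lhx1. Unclassed cells, with 29.0% of the UMIs of EV 1, entered that sum at their vehicle level. In them Gfra1 was at 93.9, 102 and 4.82 CPM and the 10 germ cell markers at 265, 247 and 42.7 CPM. A change of makeup within the unclassed cells is therefore not in these ratios, and its part was not tested. In EV 1 only 13.5% of the Etv5 UMIs came from germ cells, against 78.1% and 80.6% in the vehicle libraries, while for Ret it was 76.7%, against 86.8% and 89.5%.

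Germ cells were then divided by cell cycle state on cells thinned to 1000 UMIs. Scores used 43 S-phase and 54 G2/M genes, which include no member. The scores were taken over germ, feeder and unclassed cells of the libraries together, so the states are relative to that mix. Cells with both scores under 0 were called G1 and the others S or G2/M by the higher score. A state is a range of the score rather than a cell type, and in 4.05%, 3.75% and 3.93% of germ cells the higher score lay within 0.02 of 0, the boundary of G1. G1 held 238, 266 and 31 cells, S 1909, 2153 and 78, and G2/M 2120, 2252 and 69 cells of vehicle 1, vehicle 2 and EV 1.

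Lhx1 fell from G1 to S to G2/M in both vehicle libraries. Its level in vehicle 1 was 88.6 CPM in G1, 57.6 in S and 29.6 in G2/M, and in vehicle 2 it was 94.6, 62.2 and 36.9 CPM. In EV 1 it had 0, 5 and 4 UMIs. Across 8005 genes tested with library as a block (edgeR, 3 libraries), 6.96% were higher and 5.32% lower in G2/M than in G1, 4.88% higher and 3.19% lower in S than in G1, and 9.78% higher and 8.96% lower in G2/M than in S. The log2 fold change of Lhx1 was −1.41 from G1 to G2/M (SE 0.20, adjusted p = 4.16e-08), −0.59 from G1 to S (SE 0.19, adjusted p = 0.0321) and −0.82 from S to G2/M (SE 0.11, adjusted p = 4.78e-10). The G1 to G2/M call held in the 6 alternatives in which Lhx1 was tested, and with 2000 UMIs per cell Lhx1 did not pass the filter on low counts. The G1 to S call was lost without vehicle 1 (adjusted p = 0.579), without vehicle 2 (0.648), with DESeq2 (0.535), without the filter on low counts (0.202) and with scores over germ cells alone (0.0990). The S to G2/M call was lost without vehicle 1 (0.0733) and with DESeq2 (0.140).

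Bcl6b was likewise lowest in G2/M of the vehicle libraries. Its level was 27.1, 24.8 and 11.1 CPM in G1, S and G2/M of vehicle 1 and 29.6, 23.4 and 13.3 CPM in vehicle 2, on 11 to 105 UMIs. The log2 fold change was −1.12 from G1 to G2/M (SE 0.36, adjusted p = 0.0256) and −0.89 from S to G2/M (SE 0.17, adjusted p = 3.95e-05), and it was −0.23 from G1 to S (adjusted p = 0.783). The G1 to G2/M call was lost with DESeq2 (adjusted p = 0.205), with scores over germ cells alone (0.0557) and without the filter on low counts (0.0738), and the S to G2/M call was lost with DESeq2 (0.646). Without either vehicle library Bcl6b did not pass the filter on low counts and was not tested.

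The receptors and Etv5 had smaller differences between G1 and G2/M than Lhx1 and Bcl6b. Gfra1 was at 268, 210 and 192 CPM in G1, S and G2/M of vehicle 1 and at 215, 230 and 209 CPM in vehicle 2, and no contrast was called (G2/M against G1 −0.24, SE 0.11, adjusted p = 0.163). With scores over germ cells alone Gfra1 was called lower in G2/M than in G1 (−0.30, adjusted p = 0.00673) and than in S (−0.18, 0.00522), and at 2000 UMIs per cell lower in G2/M than in S (−0.26, 0.00612). Ret was at 93.5, 109.96 and 86.9 CPM in vehicle 1 and at 110.3, 110.4 and 103 CPM in vehicle 2. It was called lower in G2/M than in S (−0.18, SE 0.07, adjusted p = 0.0471), a call that was lost whenever 1 library was left out (0.993 without vehicle 1, 0.801 without vehicle 2 and 0.0757 without EV 1), with DESeq2 (1.000) and without the filter on low counts (0.190). Etv5 was at 140, 109 and 112 CPM in vehicle 1 and at 139.9, 117 and 108 CPM in vehicle 2, with no call (G2/M against G1 −0.33, SE 0.14, adjusted p = 0.128). With scores over germ cells alone it was called lower in G2/M than in G1 (−0.34, adjusted p = 0.0206) and in S than in G1 (−0.34, 0.0452).

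**Figure D3:**
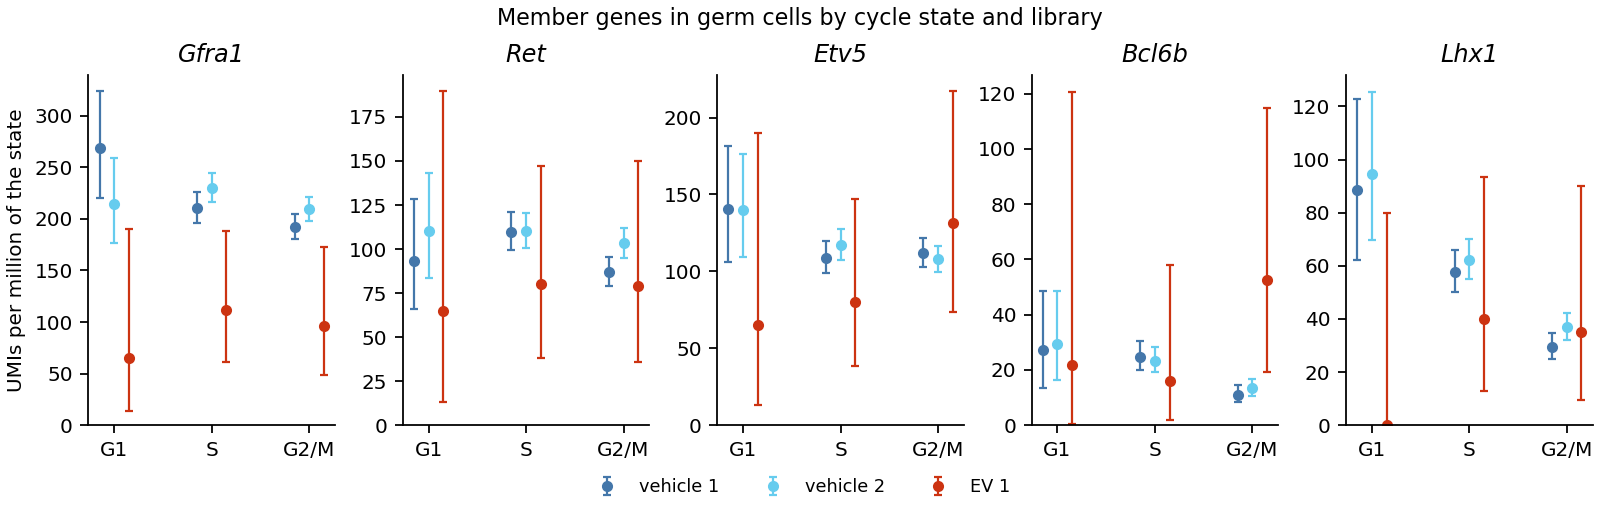
Level of each member in germ cells (CPM of the state) in G1, S and G2/M of vehicle 1, vehicle 2 and EV 1, where points are library sums and bars are 95% Poisson intervals. Lhx1 falls from 88.6 and 94.6 CPM in G1 to 29.6 and 36.9 CPM in G2/M of the vehicle libraries, Bcl6b from 27.1 and 29.6 to 11.1 and 13.3, and the bars of EV 1 are wide.

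Genes of the other lists were called between states as well. From G1 to G2/M the cyclin gene Ccnd2 fell (−0.91, adjusted p = 3.69e-18), as did Ier3 (−0.97, adjusted p = 2.81e-19), Egr1 (−0.69, adjusted p = 1.58e-04), Dusp6 (−0.88, adjusted p = 0.0390) and the SRC family kinase gene Fyn (−0.44, adjusted p = 0.0301). These were 1 of 4 tested GDNF or ETV5 genes, 3 of 8 ERK output genes and 1 of 21 adaptors and kinases, and no gene of these lists rose, beside 5.32% lower and 6.96% higher over all genes. From S to G2/M, where 9.78% of all genes were higher and 8.96% lower, 1 GDNF or ETV5 gene rose (Nefm, 0.50, adjusted p = 1.18e-06) and 1 fell, 2 ERK output genes rose (Dusp5, 0.27, and Spred1, 0.20, both adjusted p = 0.0133) and 4 fell, and 1 adaptor or kinase gene fell. From G1 to S, where 4.88% of all genes were higher and 3.19% lower, Ncam1 (−0.71, adjusted p = 0.0409), Ccnd2 (−0.32) and Ier3 (−0.53) fell. From G1 to G2/M, of 8 tested comparators 4 rose, Kit (1.25, adjusted p = 9.48e-04), Taf4b (0.91), Dmrt1 (0.58) and Stra8 (0.50), and none fell. The same 4 rose from S to G2/M, and Taf4b alone was called from G1 to S (0.61, adjusted p = 0.0189). Lhx1 and Bcl6b thus went the way of Ccnd2 and against Kit and Stra8.

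The states of EV 1 were weighted differently, with 17.4% of its germ cells in G1 against 5.58% and 5.69% in the vehicle libraries. At the vehicle level of each state this mix, which rests on 31 G1 cells, corresponds to Lhx1 at 54.4 CPM against 46.8 CPM in vehicle, and Gfra1 at 216 against 211 CPM. The measured EV 1 levels in the same cells were 31.6 CPM for Lhx1 and 98.2 CPM for Gfra1. The part of the mix in the EV 1 levels was not tested.

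To ask which genes differ in germ cells that hold the co-receptor, thinned germ cells were split by the presence of a Gfra1 UMI (720 of 4267 cells in vehicle 1, 807 of 4671 in vehicle 2 and 18 of 178 in EV 1). Across 8726 genes 0.355% were higher and 0.0802% lower with a Gfra1 UMI (edgeR, library as a block). Etv5 was among the 31 higher genes. It was at 161 CPM with and 102 CPM without a Gfra1 UMI in vehicle 1, at 134 and 98.9 CPM in vehicle 2, and at 2 and 15 UMIs in EV 1, a log2 difference of 0.53 (SE 0.13, adjusted p = 0.0124). Zbtb16 (0.58, SE 0.11, adjusted p = 5.75e-05) and Ccnd2 (0.27, SE 0.07, adjusted p = 0.0318) were also higher, and Stra8 was among the 7 lower genes (−0.76, SE 0.12, adjusted p = 1.99e-06).

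Zbtb16 was at 221 against 150.0 CPM in vehicle 1 and at 217 against 145 CPM in vehicle 2. Stra8 was at 103 against 194 CPM and at 120.3 against 184 CPM. Each gene thus moved the same way in both vehicle libraries, Zbtb16 up and Stra8 down. Ret (0.24, SE 0.14, adjusted p = 0.897), Lhx1 (0.33, SE 0.20, adjusted p = 0.916) and Bcl6b (0.03, SE 0.33, adjusted p = 0.999) were not called. The Etv5 call held without EV 1 and was lost in the other 6 alternatives, among them without vehicle 1 (adjusted p = 1.000), without vehicle 2 (1.000) and without doublet removal (0.178). The fits without a vehicle library and DESeq2 made no call for any gene, with 32 genes higher and 13 lower at an unadjusted p under 0.05 by DESeq2. With cells thinned to 2000 UMIs, Lhx1 was called (0.82, adjusted p = 5.49e-04) and Etv5 was not (0.43, adjusted p = 0.0789), and Lhx1 was also called without doublet removal (0.68, adjusted p = 0.0386).

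**Figure D4:**
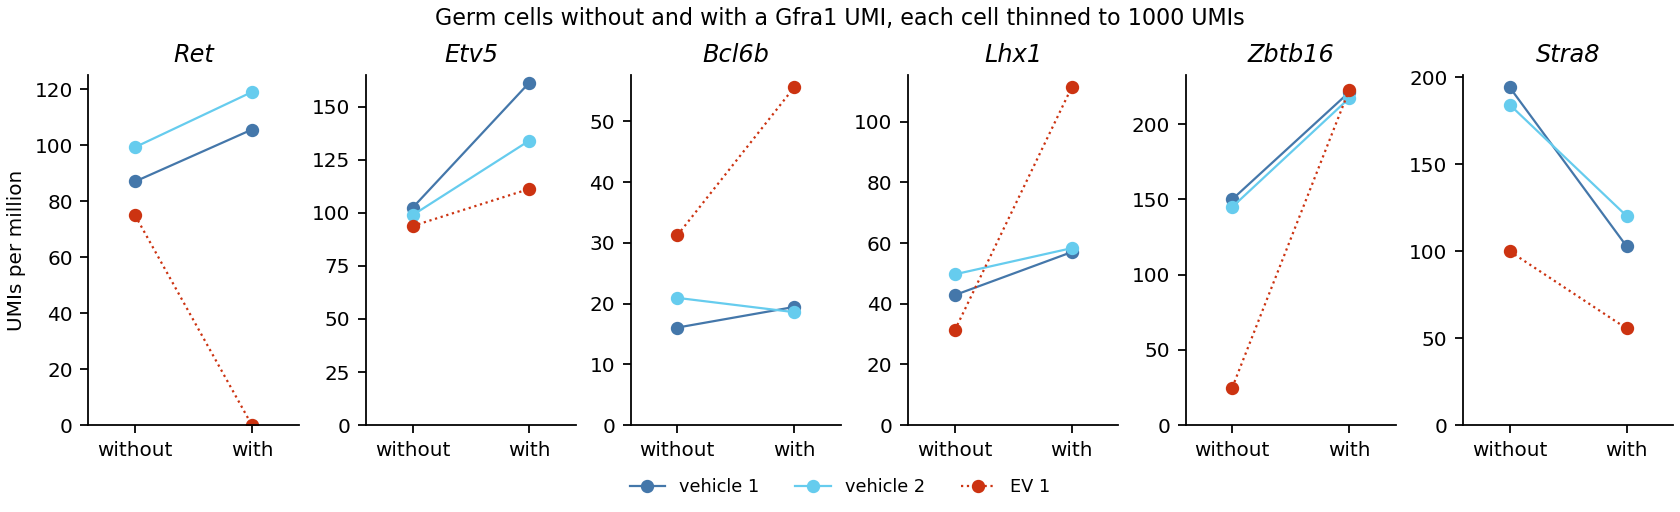
Level of Ret, Etv5, Bcl6b, Lhx1, Zbtb16 and Stra8 (CPM, germ cells thinned to 1000 UMIs) in cells without and with a Gfra1 UMI, where each line joins the sums of 1 library. Etv5 and Zbtb16 rise in both vehicle libraries and Stra8 drops from 194 and 184 to 103 and 120.3 CPM, and the points of EV 1 rest on 18 cells with a Gfra1 UMI.

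The same split by a Ret UMI (353, 454 and 12 cells) called 0 of 6539 genes, 0% higher and 0% lower, by edgeR and by DESeq2. At an unadjusted p under 0.05, 161 genes were higher and 154 lower by edgeR and 16 and 13 by DESeq2. Lhx1 had a log2 difference of 0.63 (SE 0.25, adjusted p = 0.916), Etv5 of 0.38 (SE 0.17, adjusted p = 0.999) and Gfra1 of 0.16 (SE 0.14, adjusted p = 0.999). Bcl6b did not pass the filter on low counts there. Lhx1 was at 62.4 CPM with and 43.7 CPM without a Ret UMI in vehicle 1 and at 81.6 and 47.9 CPM in vehicle 2.

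Co-detection of 2 members in a cell was set against the number expected if they were independent, at 1000 UMIs per cell and with no test, since cells of a library are not replicates. Of the 10 member pairs 8 were above expectation in both vehicle libraries (of these Etv5 with Bcl6b, at a pooled 1.35, was at 0.944 with 2000 UMIs per cell and at 0.892 without doublet removal), and the median ratio of observed to expected cells was 1.25 in vehicle 1 and 1.27 in vehicle 2. No such count was made over other germ cell genes, so these ratios are not shown to be particular to the members. Gfra1 and Ret, which form the receptor, were seen together in 69 cells of vehicle 1 (59.6 expected) and 93 of vehicle 2 (78.4 expected). Gfra1 with Etv5 gave 107 cells (74.1 expected) and 97 (78.4 expected). The pooled vehicle ratio was 1.17 for Gfra1 and Ret and 1.34 for Gfra1 and Etv5.

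Bcl6b and Lhx1 had the highest pooled ratio of the 10 pairs, 2.65, on 7 cells (2.96 expected) and 12 cells (4.22 expected). Both genes were lower in G2/M, and with the expectation taken within each cycle state the ratio was 2.41. Over 10 draws of the thinning it ranged from 1.65 to 3.27. Pairs of Bcl6b with Ret (1.01) and with Gfra1 (1.03) were near expectation, and in each of them the vehicle libraries lay on opposite sides of 1. With Zbtb16 the pooled ratios were 1.34 for Gfra1, 1.25 for Lhx1, 1.16 for Ret, 1.10 for Etv5 and 0.816 for Bcl6b, of which the last had a mean of 1.03 over 10 draws and 1.04 at 2000 UMIs per cell.

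With Stra8 every member had a pooled ratio under 1. It was 0.412 for Lhx1 (24 cells, 58.3 expected), 0.630 for Gfra1 (144 cells, 228 expected), 0.655 for Ret, 0.808 for Etv5 and 0.857 for Bcl6b, of which Bcl6b stood at 1.02 in vehicle 2. With Kit the pooled ratios were between 0.695 (Lhx1) and 0.871 (Ret), on 5 to 46 cells. The vehicle libraries lay on opposite sides of 1 for Ret with Kit (0.408 in vehicle 1 and 1.19 in vehicle 2) and for Bcl6b with Kit (0.406 and 1.11). In EV 1 no pair of members exceeded 2 cells, and Gfra1 and Ret were seen together in 0 of 178 cells (1.21 expected), too few to place a ratio.

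**Figure D5:**
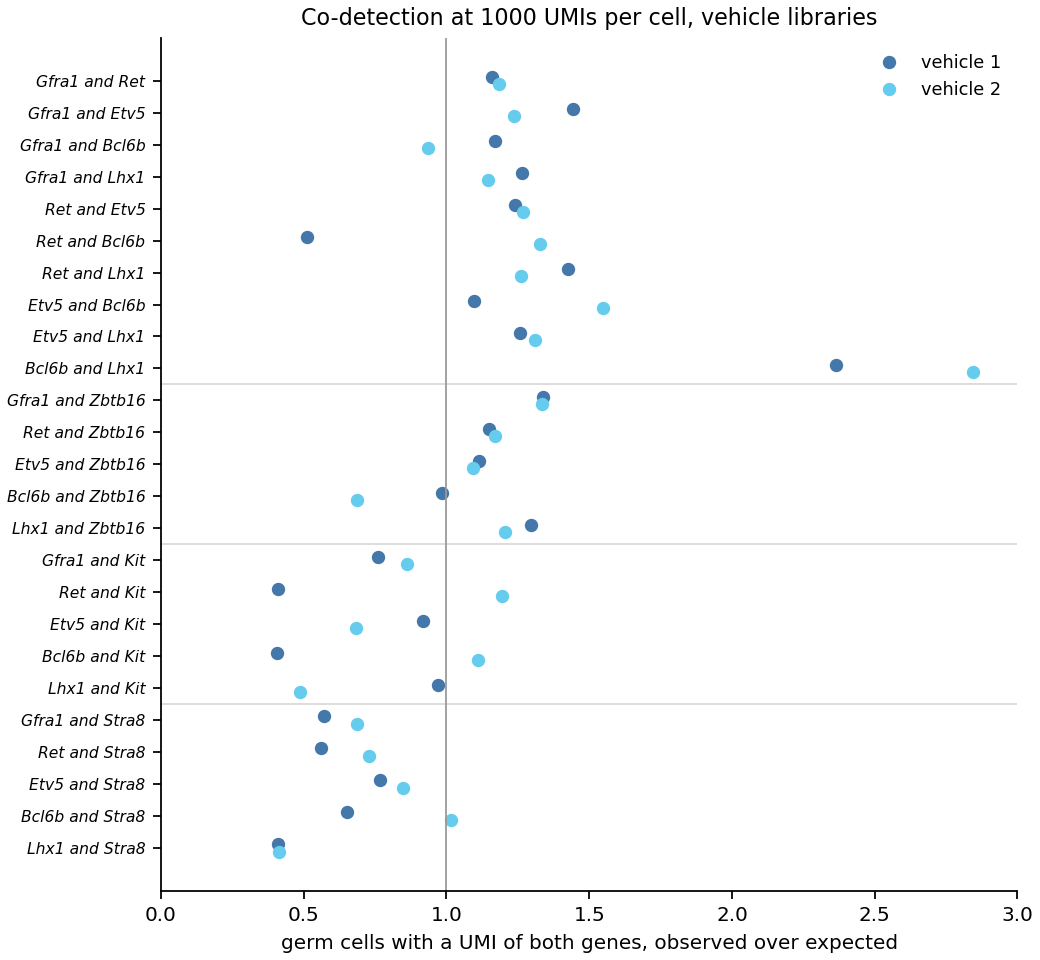
Ratio of observed to expected cells for each member pair and for members with Zbtb16, Kit and Stra8 in germ cells thinned to 1000 UMIs, where points are vehicle 1 and vehicle 2. Pairs of members and pairs with Zbtb16 lie mostly above 1, pairs with Stra8 below 1 except for Bcl6b in vehicle 2 (1.02), and Bcl6b with Lhx1 is highest at 2.36 and 2.84.

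Across the 9 germ cell sums (3 states in 3 libraries) the genes with the most similar pattern were named by Pearson's r of log2(CPM + 10), among 9628 genes and with no test. For Gfra1 these were Ube2q1 (0.991), Tox4 (0.990) and Mpped2 (0.990), for Ret Tmem175 (0.963), Bclaf1 (0.962) and Fam193b (0.953), and for Etv5 Pdzd2 (0.979), Ext1 (0.976) and Wdr6 (0.976). For Bcl6b they were Tspan31 (0.941), Ufl1 (0.936) and Nr1h2 (0.936), and for Lhx1 Cd9 (0.983), C330018D20Rik (0.981) and Casc4 (0.979). Among the members, Gfra1 and Ret had r = 0.883 and Lhx1 had 0.826 with Etv5, 0.824 with Gfra1 and 0.811 with Ret, while Bcl6b ranged from −0.19 with Gfra1 to 0.430 with Etv5. The sums of 1 library share its depth, and those of EV 1 held 0 to 15 UMIs of a member, so these values describe the 9 sums alone.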

How the data were processed

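The authors made droplet libraries of single cells with 10x Genomics chemistry. Per the labels and the study's methods, Cell Ranger 7.0.1 aligned the reads to mm10 with GENCODE vM23, and the deposited values are raw UMI counts per gene and barcode, without normalization. Whether intronic reads were counted is not given in the sources used here. Sample titles gave each group and replicate number.

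Barcodes were kept where genes numbered between 400 and 4000 and mitochondrial UMIs stayed below 10%, as in the study. The highest Scrublet scores of each library (scanpy 1.11.5) were removed as doublets at 0.8% per 1000 cells (633, 697 and 198 cells removed). Libraries shared at most 22 barcodes. Total UMIs were 23686047, 27444797 and 10793232 in vehicle 1, vehicle 2 and EV 1, and depth sets the precision through the intervals given. UMIs were summed per library and class, scaled to CPM and compared by log2 ratio with 0.5 UMI added. Sums within libraries were tested with edgeR 4.0.16 (R 4.3.3; TMM, filterByExpr, quasi-likelihood F test, Benjamini-Hochberg at 0.05), with DESeq2 1.42.0 as an alternative. The printed SE is the log2 fold change divided by the square root of F. The fits were checked on simulated data. No member belongs to the Seurat cycle lists used.

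The members, the gene lists and the tests were chosen with earlier results of these data known, and the setting with 1 marker UMI was added after the data were seen. Lists covered ligands and co-receptors, RET adaptors and kinases, other GDNF or ETV5 genes, ERK output, FGF receptors and comparators of state. Named from them were genes past the test or fold and the highest and lowest of a list. For each member the 3 genes of most similar pattern were named as well. Etv4, Hhex, Pou3f1 and Kit were in part named after their values were seen. Markers of Sertoli, Leydig, peritubular myoid, macrophage and endothelial cells summed to at most 49.2, 7.44, 14.1, 18.5 and 27.7 CPM in the germ cells of any library and to at most 304, 3.89, 27.4, 23.1 and 6.62 CPM in feeder cells.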

Additional observations from a re-analysis of the deposited data

Results flagged for a closer look

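In germ cells, 8 of the 15 cycle contrasts of the members had the opposite sign in EV 1 to both vehicle libraries. The same share was not taken over all genes, the 3 contrasts of a gene share their sums, and G1 of EV 1 held 0 to 3 UMIs of a member, so the count is given as a description. The log2 value of EV 1 for G2/M over G1 was 0.4142 for Gfra1, 0.1385 for Ret, 0.8448 for Etv5, 0.8134 for Bcl6b and 1.868 for Lhx1. For S over G1 it was 0.1497 for Etv5 and 2.024 for Lhx1, and for G2/M over S it was 1.512 for Bcl6b. In the vehicle libraries the same contrasts of Lhx1 were −1.60 and −1.37 (G2/M over G1) and −0.64 and −0.62 (S over G1). For Bcl6b they were −1.34 and −1.19 (G2/M over G1) and −1.16 and −0.81 (G2/M over S). Etv5 was at −0.34 and −0.38 (G2/M over G1) and at −0.38 and −0.26 (S over G1). Gfra1 stood at −0.49 and −0.04, and Ret at −0.12 and −0.11. The states of EV 1 held 31 cells in G1 and 0 to 15 UMIs of a member each, and the value of Lhx1 set 4 and 5 UMIs against 0. The difference between the arms was not tested, since EV 1 is a single library.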

How the results depend on the processing

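The EV 1 to vehicle ratios of the members stayed within their counting intervals in all 60 values from 12 alternatives, and the co-detection ratios did so in 50 of 50. The germ cell to feeder cell calls of the members held in 40 of 40. Ratios (log2) ranged from −1.33 to −0.87 for Gfra1, −0.80 to −0.24 for Ret, −0.50 to 0.09 for Etv5, 0.58 to 1.34 for Bcl6b and −1.08 to −0.13 for Lhx1. With at least 50 UMIs per gene 11.4% of genes were higher and 6.97% lower past the fold. The counts of cycle calls (557 higher and 426 lower for G2/M against G1, 391 and 255 for S against G1, 783 and 717 for G2/M against S) changed with most alternatives. For G2/M against G1 they were 849 and 704 with scores over germ cells alone, 90 and 59 at 2000 UMIs per cell, 278 and 171 with DESeq2, and 209 lower without the filter on low counts. For S against G1 they were 70 and 37 at 2000 UMIs, 209 and 65 with DESeq2, and 95 lower without the filter. For G2/M against S they were 225 and 259 at 2000 UMIs and 87 and 40 with DESeq2. Leaving out 1 library gave 151 to 667 higher and 45 to 373 lower genes for G2/M against G1, 121 to 414 and 11 to 194 for S against G1, 62 to 964 and 27 to 747 for G2/M against S, and 0 to 45 higher and 0 to 24 lower genes for the Gfra1 split, where the low ends came from leaving out vehicle 1 or vehicle 2 and the high ends from leaving out EV 1.

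At 2000 UMIs per cell the sign turned for Gfra1 (G2/M against G1 0.12, S against G1 0.38), Ret (G2/M against G1 0.072) and Etv5 (0.042 for G2/M against G1, 0.0065 for S against G1, 0.035 for G2/M against S), none of them called. Leaving out 1 library gave −0.31 to 0.12 for Gfra1 (S against G1), −0.040 to 0.098 for Etv5 (G2/M against S) and −0.15 to 0.27 for Bcl6b in the Gfra1 split. Other turned signs, also uncalled, were those of Ret for G2/M against G1 without the filter (0.018), Etv5 for G2/M against S with DESeq2 (0.018), and Bcl6b (0.18) and Ret (−0.074) for S against G1 with scores over germ cells alone. In the Gfra1 split Bcl6b was at −0.11 without doublet removal and −0.011 without the filter. The Gfra1 split gave 0 higher and 0 lower genes with DESeq2 and 11 higher without the filter. The Ret split gave 11 higher and 4 lower genes at 2000 UMIs and 1 lower without doublet removal. The cause of these changes was not tested.

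No paired analysis was possible because only 1 EV library was analysed here for expression, so the arms shared fewer than 2 replicate numbers. Within libraries, the block was the library itself. The EV arm rests on EV 1 alone, and depth is a further limit, since EV 1 had 227 germ cells with 9 to 32 UMIs of a member.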
